A study of Mus musculus with 16 samples.

Results

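The receptors for IL-4, IL-21 and the other cytokines that signal through the common gamma chain were examined in footpad RNA of the AIRmax and AIRmin mouse lines. The set was given by gene name and holds 10 receptor chains, namely Il4ra, Il13ra1, Il13ra2, Il21r, Il2ra, Il2rb, Il2rg, Il15ra, Il7r and Il9r. Of these, 9 of 10 were measured among 19938 genes, each by 1 probe set. Il2rg, the common gamma chain itself, was not analysed here, because the probe annotation used names no probe set for it.

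AIRmax and AIRmin mice are lines of an outbred stock selected for high and low acute inflammation. The samples were 16 Affymetrix Mouse Gene 1.0 ST arrays, 4 for control and 4 for pristane footpads of each line, with 2 males and 2 females in each group. Pristane is a mineral oil that induces arthritis, and it was given as 2 intraperitoneal injections of 0.5 ml with 60 days between them. Control footpads are those of day 0 and pristane footpads those of day 160, so that within each line treatment and time cannot be told apart. The age label is 2 to 4 months on all arrays, and the age at collection is not given for the day 160 mice. Each array has a number, from 105 to 108 for AIRmax control, 109 to 112 for AIRmax pristane, 113 to 116 for AIRmin control and 117 to 120 for AIRmin pristane. In each group the lower pair of numbers are males and the higher pair females, and values below are given in that order.

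A cytokine of this family binds a private receptor chain, which pairs with the common gamma chain and activates JAK kinases and STAT transcription factors. The IL-4 receptor alpha chain pairs either with the common gamma chain, to bind IL-4, or with Il13ra1, to bind IL-4 and IL-13, and both forms activate STAT6. Il13ra2 binds IL-13 and is known as a decoy. Il21r is the private chain for IL-21, a product of helper T cells that acts on B cells, T cells, NK cells and myeloid cells. Il2ra and Il2rb take part in the IL-2 receptor, Il2rb and Il15ra in the IL-15 receptor, and Il7r and Il9r bind IL-7 and IL-9.

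Il4ra and Il21r are neighbours on chromosome 7 (GRCm38.p6, chr7:125552271-125579474 and chr7:125603252-125634397), separated by 23.8 kb that hold no other annotated gene. Since these neighbours had the largest differences of the 9 chains, the sequences around their start sites are shown, 250 bases before and 50 bases after the start of a transcript, both on the plus strand, as RefSeq gives them for GRCm38.p6. Il4ra lies at chr7:125552021-125552320 and Il21r at chr7:125603179-125603478, the latter with its start inside the annotated gene. Capitals mark matches on either strand to the octamer letters ATGNAAAT and to the GC box GGGCGG, which were chosen after the sequences had been seen and nowhere overlap.
Il4ra: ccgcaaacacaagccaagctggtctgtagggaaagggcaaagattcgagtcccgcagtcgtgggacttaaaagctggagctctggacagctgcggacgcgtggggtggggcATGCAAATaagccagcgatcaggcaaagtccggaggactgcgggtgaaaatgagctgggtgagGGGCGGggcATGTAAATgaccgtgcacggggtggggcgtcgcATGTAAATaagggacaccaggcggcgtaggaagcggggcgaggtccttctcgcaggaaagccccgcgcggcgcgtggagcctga
Il21r: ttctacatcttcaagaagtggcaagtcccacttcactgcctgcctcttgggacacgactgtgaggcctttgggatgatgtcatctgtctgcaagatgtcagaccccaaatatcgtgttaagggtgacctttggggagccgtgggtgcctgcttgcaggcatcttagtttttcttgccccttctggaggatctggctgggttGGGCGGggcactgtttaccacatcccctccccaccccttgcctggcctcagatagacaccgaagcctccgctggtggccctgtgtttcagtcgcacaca
The Il4ra sequence held 3 octamer matches, and the Il21r sequence held 0. Among 32851 such sequences of the genome 5.67% held at least 1 octamer match and 0.0457% held 3 or more, and 35.7% held a GC box. Neither sequence matched the letters TTCNNNGAA or TTCNNNNGAA, the spacings bound by STAT factors and by STAT6, which 8.3% and 6.95% of all such sequences held. These matches describe letters in the windows and are not measured binding sites. Because the octamer letters were chosen with these sequences in view, their shares are a description and no test of the Il4ra sequence.

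Il4ra had the highest signals on the AIRmax pristane arrays. Its log2 signals were 8.09, 7.82, 8.68 and 8.36 in AIRmax control mice, and 9.45, 9.47, 9.19 and 9.54 in AIRmax pristane mice. In AIRmin mice they were 7.88, 8.09, 8.39 and 9.16 in controls and 7.92, 8.73, 8.40 and 8.59 with pristane. The AIRmax pristane arrays lay above all others, and the array that came nearest to them was a control, AIRmin female 116 at 9.16.

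With pristane, Il4ra rose in AIRmax mice by 1.17 on the log2 scale, or 2.26-fold (SE 0.18, 95% confidence interval 0.77 to 1.58, limma, adjusted p = 0.0419, 4 arrays in each group). It was the only chain of 9 that passed the adjusted p of 0.05 in this comparison, where 0.281% of all genes did. The call needed all 8 arrays, because the adjusted p was between 0.0568 and 0.139 when any 1 array was left out, while the difference stayed between 1.03 and 1.32. The same fit without genes of below-median signal gave no call either. In bulk tissue, more cells of a type and more RNA per cell cannot be told apart, nor can fewer cells and less RNA. This holds here and in every result that follows.

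**Figure D1:**
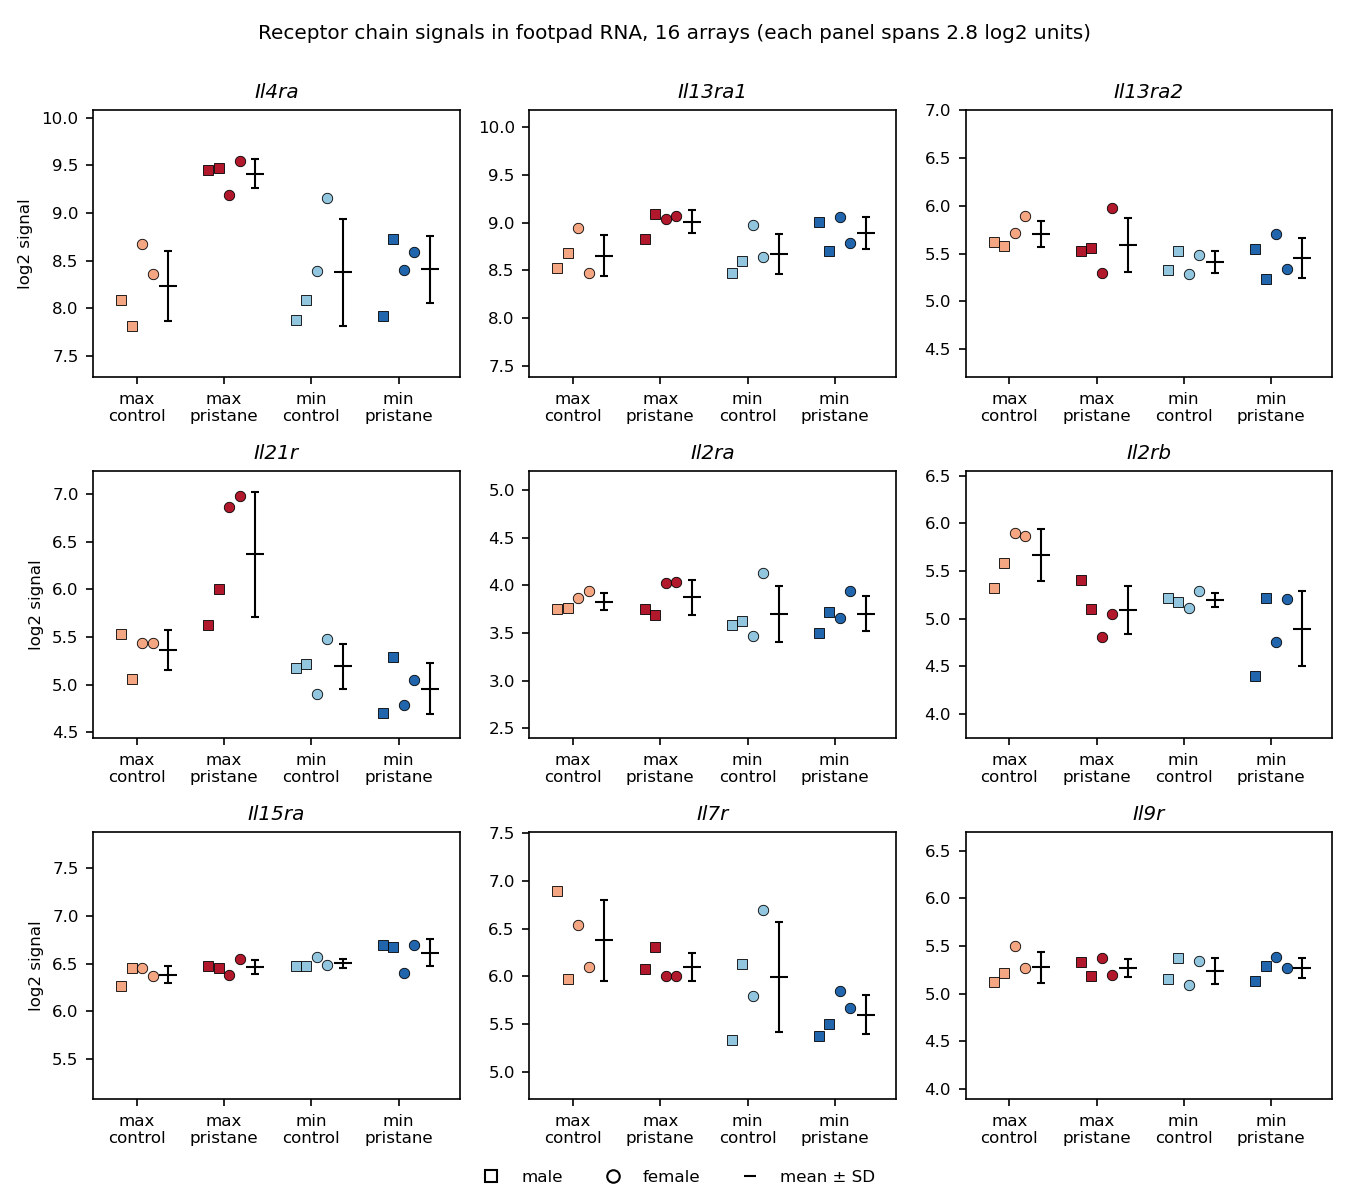
Log2 signal (vertical axes, each spanning the same number of log2 units) of the 9 measured receptor chains on 16 arrays, by line (max, AIRmax; min, AIRmin) and treatment. Squares are males, circles are females and bars give the mean ± SD of 4 arrays. Il4ra and Il21r were higher on all AIRmax pristane arrays than on all others, and Il2ra and Il9r stayed within narrow ranges.

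In AIRmin mice the Il4ra difference between pristane and control was 0.03 (95% confidence interval -0.57 to 0.64, adjusted p = 0.98), and the groups overlapped. Between the lines, both with pristane, Il4ra was higher in AIRmax mice by 1.0, or 2.00-fold (SE 0.17, adjusted p = 0.0347), without overlap. It was again the only 1 of 9 chains called, beside 1.36% of all genes. That call held in 2 of 8 fits with an array left out, without 110 (adjusted p = 0.0461) or without 118 (adjusted p = 0.036), and over the 8 fits the adjusted p ran from 0.036 to 0.0966. It was lost with sex as a covariate (adjusted p = 0.055). The comparisons share groups and are not independent of each other.

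Il13ra1, the partner of Il4ra in the receptor for both IL-4 and IL-13, had smaller differences than Il4ra. Its group means were 8.65 ± 0.21 and 9.01 ± 0.12 in AIRmax control and pristane mice and 8.67 ± 0.21 and 8.89 ± 0.17 in AIRmin control and pristane mice (SD, n = 4). The difference with pristane was 0.35 in AIRmax mice (adjusted p = 0.245) and 0.22 in AIRmin mice (adjusted p = 0.547), with overlap in both lines. The decoy receptor Il13ra2 ranged from 5.23 to 5.98 over all arrays and was not called in any comparison.

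Il21r showed the largest difference between the lines among the chains. The log2 signals of Il21r were 5.53, 5.06, 5.44 and 5.44 in AIRmax controls and 5.63, 6.00, 6.86 and 6.98 in AIRmax pristane mice. In AIRmin mice they were 5.17, 5.22, 4.90 and 5.48 in controls and 4.70, 5.29, 4.79 and 5.05 with pristane. The AIRmax pristane arrays lay above all others, although the lowest, male 109 at 5.63, was close to the highest control, and the 2 females were above the 2 males.

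The Il21r difference with pristane was 1.0 in AIRmax mice (SE 0.29, 95% confidence interval 0.34 to 1.65, adjusted p = 0.186) and -0.23 in AIRmin mice (adjusted p = 0.6), and neither passed the test. Between the pristane groups it was 1.41, or 2.66-fold (SE 0.30, 95% confidence interval 0.74 to 2.08), with an adjusted p of 0.057, just outside the threshold. With all 16 arrays in 1 fit, which share an estimate of the spread, the adjusted p of the same difference was 0.00488, and without male 109 or male 110 of the AIRmax pristane group it was 0.0336 and 0.0488. Without any other single array it lay between 0.0623 and 0.184. Among the limma alternatives that kept every array, 2 of 7 called Il21r between the pristane groups. For Il4ra 6 of 8 gave a call in that comparison, and its adjusted p in the joint fit of 16 arrays was 0.0263.

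SAM, the permutation method of the study, was run as an alternative at a false discovery rate of 0.05. It called Il4ra and Il21r as higher and Il2rb as lower with pristane in AIRmax mice, 3 of 9 chains beside 3.7% of all genes. Between the pristane groups it called Il4ra, Il21r and Il7r as higher in AIRmax mice, 3 of 9 beside 4.98%. It called 0 of 9 with pristane in AIRmin mice, beside 2.09% of all genes, and 0 of 9 between the control groups, beside 1.31%.

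**Figure D2:**
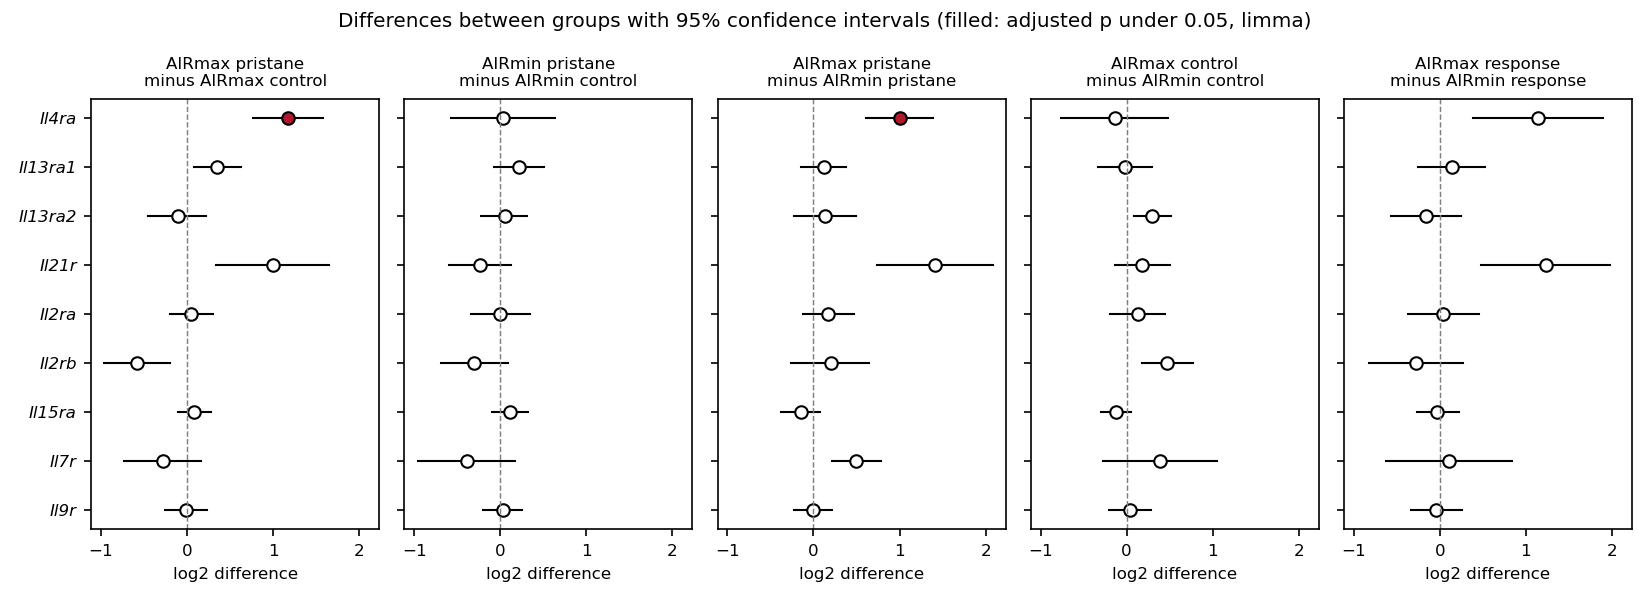
Log2 differences (horizontal axes) of the 9 receptor chains in 5 comparisons, with 95% confidence intervals from limma and filled points where the adjusted p was under 0.05. Only the Il4ra points of the AIRmax response (1.17) and of the pristane groups (1.0) are filled, and the Il21r interval lies above 0 in 3 of the panels.

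No receptor chain was called with pristane in AIRmin mice. By limma 0 of 9 chains passed the adjusted p, beside 0.0% of all genes, and 0 of 9 had an unadjusted p under 0.05, beside 12.4%. The control and pristane groups overlapped for all 9 chains, whereas 7.51% of all genes showed no overlap. The largest differences were -0.39 for Il7r and -0.30 for Il2rb, with 95% confidence intervals of -0.95 to 0.17 and -0.69 to 0.09. In AIRmax mice 4 of 9 chains (Il4ra, Il21r, Il2rb and Il13ra1) had an unadjusted p under 0.05, beside 14.4% of all genes, and 2 of 9 (Il4ra and Il21r) did not overlap, beside 9.39%. The median difference over the 9 chains was 0.05 in AIRmax mice and 0.03 in AIRmin mice, against 0.03 and 0.02 over all genes.

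The test of the line by treatment interaction asks whether the response to pristane differed between the lines. The AIRmax response minus the AIRmin response was 1.14 for Il4ra (95% confidence interval 0.39 to 1.89, adjusted p = 0.317) and 1.23 for Il21r (95% confidence interval 0.48 to 1.98, adjusted p = 0.248). No chain of 9 passed the adjusted p, beside 0.171% of all genes, and Il4ra and Il21r were the 2 of 9 with an unadjusted p under 0.05, beside 8.21%. Without array 109 the interaction of Il21r passed (adjusted p = 0.0397). With all arrays no chain was therefore shown to respond differently in the lines.

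Il2rb, the signalling chain shared by the IL-2 and IL-15 receptors, was highest in AIRmax controls. On the log2 scale its signals were 5.32, 5.59, 5.90 and 5.87 in AIRmax controls and 5.41, 5.10, 4.81 and 5.05 in AIRmax pristane mice. They were 5.22, 5.18, 5.11 and 5.29 in AIRmin controls and 4.40, 5.22, 4.76 and 5.21 in AIRmin pristane mice. The AIRmax groups overlapped because male 109, with pristane, lay above control male 105, and every AIRmax control lay above every AIRmin control. The difference was -0.58 with pristane in AIRmax mice (95% confidence interval -0.96 to -0.20, adjusted p = 0.181) and 0.47 between the control groups (adjusted p = 0.205), neither passing the test.

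The signals of Il2ra, the chain that gives the IL-2 receptor its high affinity, ran from 3.47 to 4.13 over all arrays. The files give no detection call. Genes silent in a sex show the low end of the scale, which differed by probe set: Xist gave 3.45 to 4.32 in males, and in females Kdm5d gave 2.67 to 3.34, Eif2s3y 2.04 to 2.48 and Uty 2.13 to 2.79, all of the Y chromosome. Il2ra lay within the first of these ranges and above the other 3, so whether it exceeded its own background is unknown, and its differences are given with that limit. Il15ra, which presents IL-15 to neighbouring cells, ran from 6.26 to 6.70. Its difference with pristane was 0.08 in AIRmax mice and 0.11 in AIRmin mice, with 95% confidence intervals of -0.11 to 0.28 and -0.10 to 0.32. Il15ra lies 12 kb from Il2ra on chromosome 2, with 1 annotated gene, Gm39759, between them.

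Il7r, the chain that naive and memory T cells need to receive IL-7, was higher in AIRmax than in AIRmin mice with pristane, without passing the test. Its log2 signals were 6.08, 6.31, 6.00 and 6.00 in AIRmax pristane mice and 5.38, 5.50, 5.85 and 5.67 in AIRmin pristane mice. The groups did not overlap, and the difference was 0.50 (95% confidence interval 0.21 to 0.79, adjusted p = 0.0898). In controls Il7r spread widely, from 5.97 to 6.90 in AIRmax and from 5.33 to 6.70 in AIRmin mice. The difference between these control groups was 0.39 (95% confidence interval -0.27 to 1.05, adjusted p = 0.504). With pristane Il7r differed by -0.28 in AIRmax and -0.39 in AIRmin mice, and its interaction was 0.11 (adjusted p = 0.973). Il9r, the chain for IL-9, kept to 5.09 to 5.50 over all arrays and differed by at most 0.04 in size in the 5 comparisons.

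Between the pristane groups 3 of 9 chains (Il4ra, Il21r and Il7r) had an unadjusted p under 0.05 and did not overlap, all higher in AIRmax mice, beside 18.8% and 10.8% of all genes. Between the control groups 0 of 9 passed the adjusted p, beside 0.0802% of all genes. Il2rb and Il13ra2 had an unadjusted p under 0.05 there, 2 of 9 beside 16.8%. Il2rb and Il13ra2 (by 0.30) were higher and Il15ra (by 0.12) was lower in AIRmax controls without overlap, 3 of 9 beside 10.3%.

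Sex was read within the groups, since Il13ra1 and Il13ra2 are X-linked and each group holds both sexes. No chain of 9 passed the adjusted p, beside 0.105% of all genes, and Il13ra1 and Il13ra2 differed by -0.13 and -0.10 (male minus female). Il4ra by -0.36 and Il2ra by -0.21, the latter with the limit on its background given above, were the 2 of 9 with an unadjusted p under 0.05, beside 4.98%. The female means of Il21r were 5.44 in AIRmax controls and 6.92 with pristane, and the male means were 5.30 and 5.81 (n = 2 each). The female response exceeded the male response by 0.96 (95% confidence interval 0.20 to 1.71, adjusted p = 0.999), a contrast chosen after these values had been seen. In it 0 of 9 chains passed the adjusted p, beside 0.0% of all genes, and Il21r was the 1 of 9 with an unadjusted p under 0.05, beside 3.22%.

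**Figure D3:**
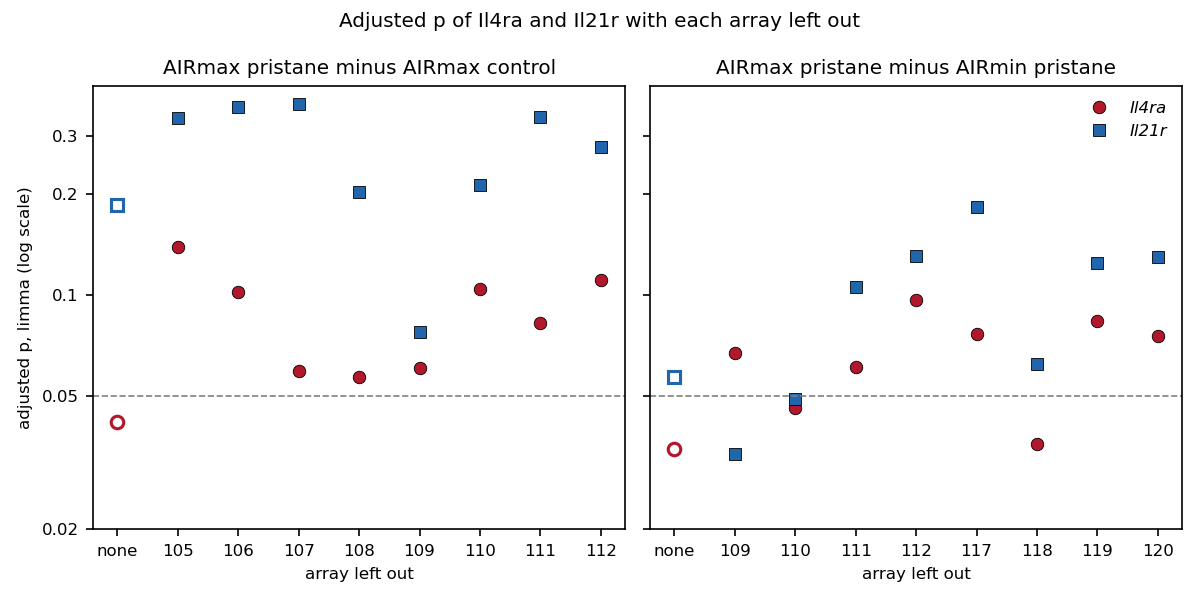
Adjusted p from limma (vertical axis, log scale) of Il4ra (circles) and Il21r (squares) when each array (horizontal axis) was left out, in the AIRmax response and between the pristane groups. Open symbols use all 8 arrays and the dashed line is 0.05. Il4ra lies below the line with all arrays (0.0419 and 0.0347), above it in every leave-one-out fit of the AIRmax response, and in 6 of 8 between the pristane groups.

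Marker genes of cell types shifted beside these results, and their part in them was not tested. Their counts of calls, and those of the pathway lists, are to be read beside the 0.281% of all genes called in the AIRmax response, 0.0% in the AIRmin response, 1.36% between the pristane groups, 0.0802% between the controls and 0.171% in the interaction. Of 14 macrophage and monocyte markers 3 rose with pristane in AIRmax mice (Cd68, Cd14 and Msr1) and 5 were higher in AIRmax than in AIRmin mice with pristane. Their mean log2 signal ran from 9.21 to 9.70 on AIRmax pristane arrays, from 8.69 to 8.96 on AIRmax controls, from 8.63 to 8.90 on AIRmin controls and from 8.06 to 8.76 on AIRmin pristane arrays. The mean of this list was thus highest on the AIRmax pristane arrays, as Il4ra and Il21r were. Of the 14 markers 11 had a positive difference with pristane in AIRmax mice. Cd163 went the other way, with group means of 8.72 in AIRmax controls and 8.22 in AIRmax pristane mice. In AIRmin mice 9 of 14 were lower with pristane at an unadjusted p under 0.05, beside 12.4% of all genes, and limma called 0. SAM called 5 of 14 as higher with pristane in AIRmax mice, beside 3.7%, and 8 between the pristane groups, beside 4.98%. In AIRmin mice it called 3 as lower with pristane, beside 2.09%. Fibroblast markers also separated the pristane groups, with means from 10.07 to 10.56 in AIRmax and from 9.13 to 9.82 in AIRmin mice. Of 10 such markers limma called 2 and SAM 4 as higher in AIRmax mice, and the median difference was 0.83. In AIRmin mice 9 of 10 fibroblast markers were lower with pristane at an unadjusted p under 0.05, beside 12.4% of all genes. There limma called 0 and SAM 6 as lower, the latter beside 2.09%. Neutrophil marker means reached higher in AIRmax than in AIRmin mice both in controls (9.76 to 11.32 and 6.95 to 9.78) and with pristane (9.32 to 11.40 and 7.30 to 10.67), with overlap, 0 of 11 called and median differences of 1.83 and 1.41. In both comparisons 11 of 11 neutrophil differences were positive. With an unadjusted p under 0.05, 10 of 11 were higher in controls, beside 16.8% of all genes, and 2 of 11 with pristane, beside 18.8%. SAM called 1 of 11 in controls, beside 1.31%, and 0 with pristane, beside 4.98%.

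T, NK and B cells carry many of these receptors. Their markers did not follow the order of Il4ra and Il21r over the groups. Group means of the T cell list were 5.56 and 5.20 in AIRmax control and pristane mice, and 5.25 and 5.12 in AIRmin mice. Il2rb ranked the groups in the same way, with means of 5.67, 5.09, 5.20 and 4.90. Between the controls 4 of 12 T cell markers were higher in AIRmax mice with an unadjusted p under 0.05, beside 16.8% of all genes. Of 12 measured T cell markers limma called 0 as higher and 1 (Cd2) as lower with pristane in AIRmax mice. SAM called 3 as lower, beside 3.7% of all genes, and 5 were lower with an unadjusted p under 0.05, beside 14.4%. Their mean ran from 5.39 to 5.80 in AIRmax controls and from 5.09 to 5.30 in AIRmax pristane mice. The NK cell markers ran from 4.13 to 4.52 and from 3.82 to 4.42 in the same groups, with 0 of 8 called by limma and 1 called lower by SAM. Of 7 measured B cell markers limma called 2 (Cr2 and Fcmr) as lower with pristane in AIRmax mice and 0 in AIRmin mice. SAM called 7 and 5 as lower, beside 3.7% and 2.09% of all genes. In both lines 7 of 7 were lower with an unadjusted p under 0.05, beside 14.4% and 12.4%. The median differences were -1.39 in AIRmax and -0.82 in AIRmin mice. Their mean ran from 5.76 to 6.79 in AIRmax controls and from 4.58 to 5.30 in AIRmax pristane mice, and from 5.64 to 6.33 and from 4.55 to 5.26 in AIRmin mice.

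Skeletal muscle markers ran from 9.24 to 9.87 in AIRmax controls and from 7.88 to 9.56 in AIRmax pristane mice, and in AIRmin mice from 8.92 to 10.34 and from 9.82 to 10.19. With pristane in AIRmax mice limma called 0 of 20, and the median difference was -0.97. SAM called 14 of 20 as lower, beside 3.7% of all genes, and 14 were lower with an unadjusted p under 0.05, beside 14.4%. In the comparison of the pristane groups limma called 2 of 20 as lower in AIRmax mice, with a median of -1.24. SAM called 6 of 20 as lower there, beside 4.98% of all genes, and 19 had an unadjusted p under 0.05, beside 18.8%. With the muscle score as a covariate the Il4ra difference in AIRmax mice was 1.24 (adjusted p = 0.493) and that of Il21r was 0.37 (adjusted p = 0.802). Between the pristane groups the values were 1.11 (adjusted p = 0.882) and 0.49 (adjusted p = 0.961). In the interaction the covariate moved Il4ra from 1.14 to 0.85 and Il21r from 1.23 to 0.65, and none of these values passed the test. Without the covariate Il4ra differed by 1.17 in AIRmax mice and 1.0 between the pristane groups, and Il21r by 1.0 and 1.41. The muscle score did not overlap between the pristane groups and shifted with pristane in AIRmax mice. These fits can therefore hardly separate score from group. Socs3, Arg1 and Fcer2a, described below, lost their pairwise calls with this covariate too. The part of muscle was not tested. Keratinocyte markers, which belong to the labelled footpad, had means from 9.44 to 11.93 over all arrays. Between the pristane groups 0 of 7 keratinocyte differences were positive, with a median of -0.74 and 0 called. Adipocyte markers had medians of -1.03 with pristane in AIRmax and -0.79 in AIRmin mice. SAM called 4 and 2 of 6 as lower, beside 3.7% and 2.09% of all genes. Of 8 endothelial markers 6 were lower with pristane in AIRmin mice with an unadjusted p under 0.05, beside 12.4%. Granulocyte precursor markers ranged from 5.91 to 10.68, and the arrays at or above 9.94 (108, 109, 112 and 118) came from 3 groups. In controls 6 of 6 were higher in AIRmax mice with an unadjusted p under 0.05, beside 16.8% of all genes. Their median difference there was 2.08, and 0 were called. Between the pristane groups 6 of 6 differences were positive, with a median of 1.2. There 0 of 6 had an unadjusted p under 0.05, beside 18.8%.

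**Figure D4:**
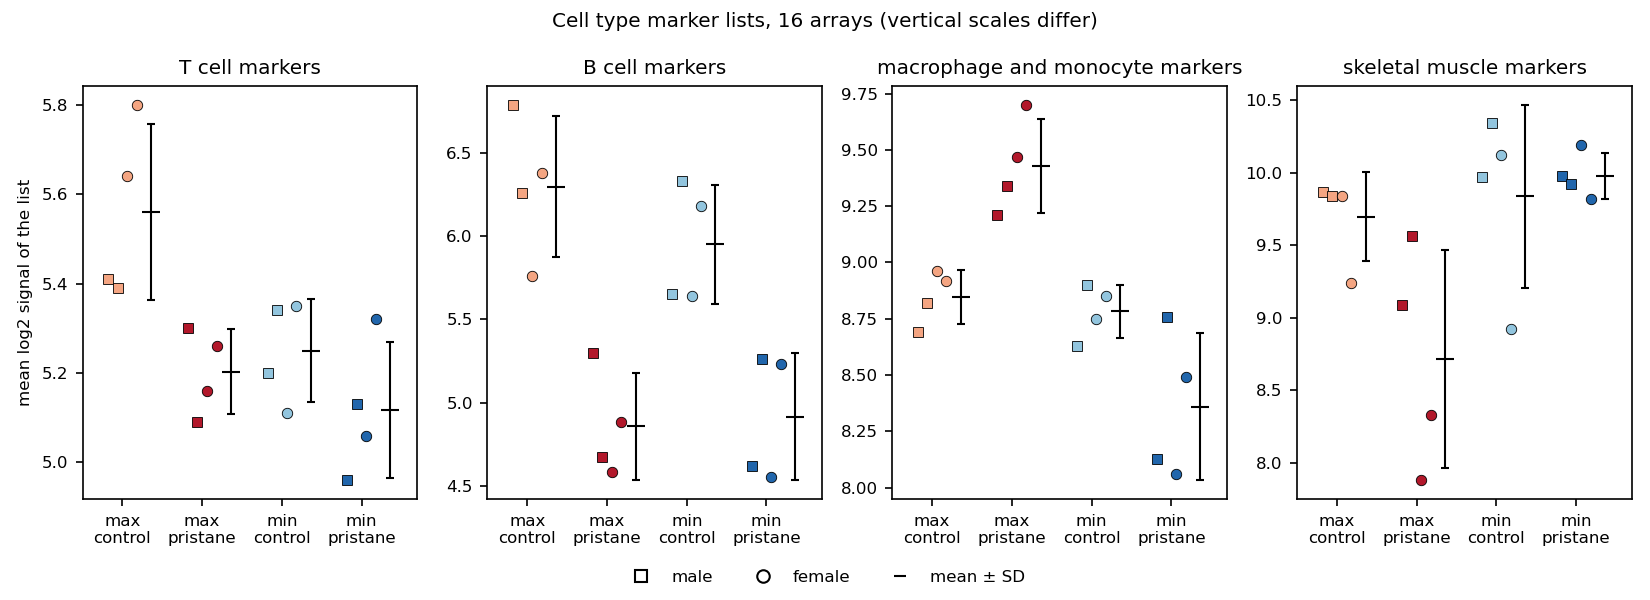
Mean log2 signal of the measured genes of 4 cell type marker lists (vertical axes, with differing scales) on 16 arrays by line (max, AIRmax; min, AIRmin) and treatment. Squares are males, circles are females and bars give the mean ± SD of 4 arrays. The mean of the macrophage and monocyte markers was highest on the AIRmax pristane arrays (9.21 to 9.70), whereas the B cell means with pristane lay below those of the controls in both lines.

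The cytokines that bind these receptors showed no called difference. Of 8 ligand genes, all measured, 0 were called in any of the 5 comparisons of line and treatment, and their median difference was -0.13 with pristane in AIRmax mice and -0.02 in AIRmin mice. Il21, the ligand of Il21r, had log2 signals from 2.33 to 3.17, at the low end of the scale. Its differences were -0.04 in AIRmax and 0.04 in AIRmin mice, and whether its signals exceeded background is unknown. Il13 differed by -0.15 and 0.17, and Il7 by -0.41 (adjusted p = 0.321) and 0.12.

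Of 14 measured kinases, STATs and adaptors, 0 were called in any of the 5 comparisons of line and treatment. Their median difference between the pristane groups was 0.26, against -0.01 over all genes. Between the control groups it was already 0.17, against -0.03. With pristane it was 0.01 in AIRmax and -0.05 in AIRmin mice, against 0.03 and 0.02. Stat3, which IL-21 activates, differed by 0.41 between the pristane groups (adjusted p = 0.167), and the adaptor Grb2 by 0.54 (adjusted p = 0.126). Crlf2, a receptor chain of the same pathway list that binds TSLP, differed there by 0.39 (adjusted p = 0.199). With pristane Stat3, Grb2 and Crlf2 differed by 0.32, 0.12 and 0.40 in AIRmax and by 0.16, -0.04 and 0.21 in AIRmin mice.

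Among 10 negative regulators 1 was called, Socs3, a feedback inhibitor of JAK kinases that STAT3 induces. Its log2 signals were 6.72, 6.86, 6.87 and 6.95 in AIRmax controls and 8.31, 8.45, 8.57 and 8.90 in AIRmax pristane mice. In AIRmin mice they were 7.18, 7.27, 7.14 and 7.27 in controls and 6.97, 7.45, 6.86 and 6.81 with pristane. The lowest AIRmax pristane array, at 8.31, stood above the highest of all others, at 7.45.

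Socs3 rose with pristane in AIRmax mice by 1.71, or 3.27-fold (SE 0.13, adjusted p = 0.00265), and differed by -0.19 in AIRmin mice (adjusted p = 0.631). It was higher in AIRmax than in AIRmin mice with pristane by 1.54 (adjusted p = 0.0113), and its response differed between the lines by 1.90 (adjusted p = 0.000417). The call of the AIRmax response held in 8 of 8 fits with an array left out and that of the interaction in 16 of 16, while that between the pristane groups held in 6 of 8. With the muscle score as a covariate the 2 pairwise calls were lost (adjusted p = 0.102 and 0.798) and that of the interaction held. Cish, a feedback inhibitor that STAT5 induces, differed by -0.71 between the pristane groups (adjusted p = 0.15), and the phosphatases Ptpn6 by 1.0 (adjusted p = 0.183) and Ptpn2 by 0.40 (adjusted p = 0.192).

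**Figure D5:**
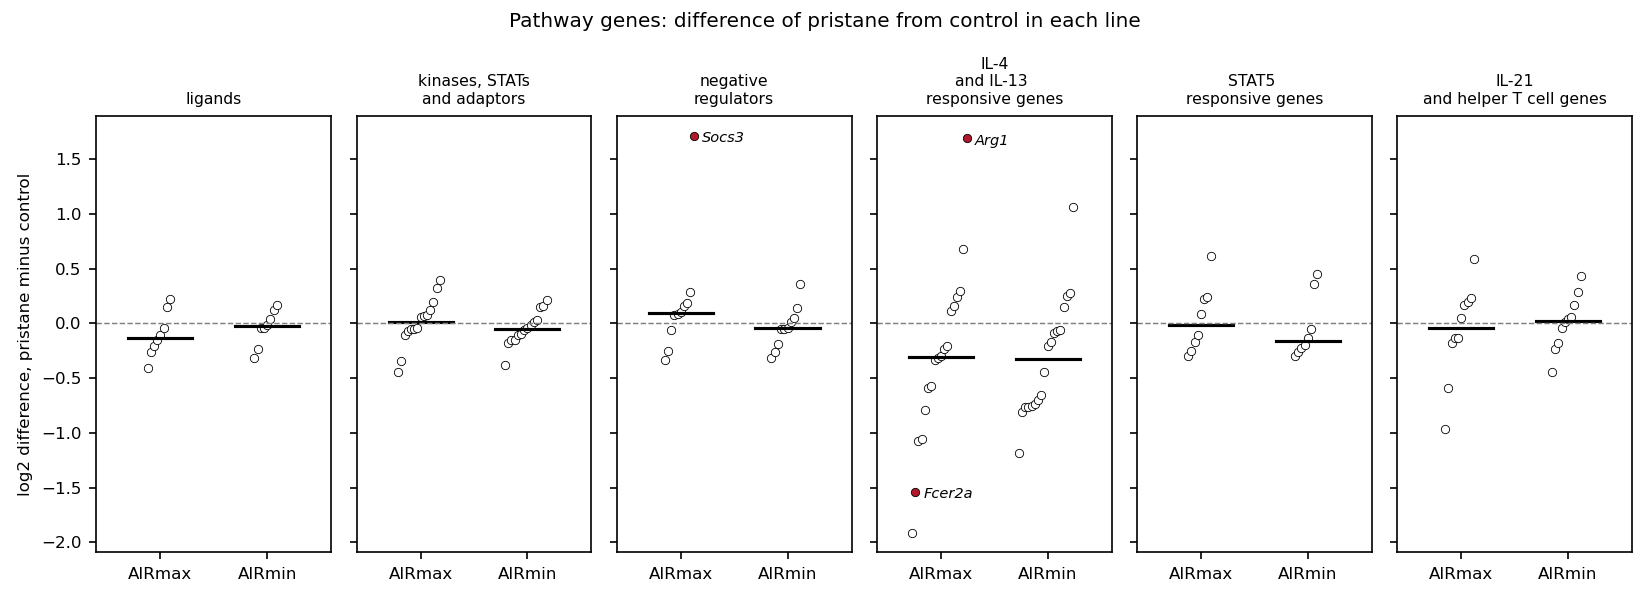
Log2 difference of pristane from control (vertical axis) in AIRmax and AIRmin mice for the measured genes of 6 pathway lists. Each circle is a gene, filled and named where the adjusted p from limma was under 0.05, and bars give the list medians. Socs3 (1.71) and Arg1 (1.69) were called as higher and Fcer2a (-1.54) as lower, all in AIRmax mice.

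The genes that IL-4 and IL-13 are known to induce did not rise together. Of 18, all measured, limma called 1 as higher and 1 as lower with pristane in AIRmax mice and 0 in AIRmin mice. Their median difference was -0.31 in AIRmax and -0.32 in AIRmin mice, against 0.03 and 0.02 over all genes. In AIRmin mice 0 of 18 had a positive difference with an unadjusted p under 0.05 and 8 of 18 a negative one, beside 1020 higher and 1449 lower of all 19938 genes. In AIRmax mice the counts were 1 and 6, beside 1503 higher and 1376 lower of all genes. SAM called 1 of 18 as higher and 5 as lower in AIRmax mice, beside 3.7% of all genes. In AIRmin mice it called 0 as higher and 4 as lower, beside 2.09%.

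The gene that limma called as higher was Arg1, an arginase of alternatively activated macrophages. Its log2 signals were 6.00, 5.82, 5.67 and 5.55 in AIRmax controls and 6.74, 7.30, 7.87 and 7.90 in AIRmax pristane mice, without overlap. The rise was 1.69, or 3.23-fold (SE 0.25, adjusted p = 0.0380), and it was called in 1 of 8 fits with an array left out (adjusted p 0.0117 to 0.143). The call was lost without dim genes (adjusted p = 0.0554) and with the muscle score as a covariate (adjusted p = 0.551). In AIRmin mice Arg1 differed by 0.15 (adjusted p = 0.849).

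The gene that limma called as lower was Fcer2a, the low-affinity IgE receptor of B cells. It had log2 signals of 5.78, 5.55, 5.46 and 5.06 in AIRmax controls and 3.59, 4.30, 3.99 and 3.80 in AIRmax pristane mice, without overlap, and the mean of the B cell markers was lower on the same pristane arrays, as given above. It fell by 1.54 on the log2 scale (SE 0.19, adjusted p = 0.0215), and since the pristane signals lay within the range that Xist gave in males, the true fall may be larger. The call held in 3 of 8 fits with an array left out (adjusted p 0.018 to 0.0991) and not with the muscle score as a covariate (adjusted p = 0.417). In AIRmin mice the difference was -1.18 (adjusted p = 0.0513), to signals that were as low.

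Retnla, singled out after its values were seen as the lowest gene of this list, differed by -1.91 in AIRmax mice without a call by limma. Ccl24, an eosinophil chemokine, differed by -1.12 between the pristane groups (adjusted p = 0.0651). Its means in AIRmax and AIRmin controls were already 7.06 and 7.88. Clec7a, a beta-glucan receptor of myeloid cells, differed by 1.30 between the pristane groups (adjusted p = 0.072). Its signals were already higher in AIRmax controls (6.52 or above) than in AIRmin controls (6.27 or below). With pristane Clec7a differed by 0.24 in AIRmax and -0.21 in AIRmin mice. Postn, a matrix protein of fibroblasts, differed by 0.69 between the pristane groups (adjusted p = 0.0954). With pristane Postn differed by 0.11 in AIRmax and -0.70 in AIRmin mice.

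Of 8 genes responsive to STAT5, the factor downstream of the IL-2, IL-7 and IL-15 receptors, 0 were called in any of the 5 comparisons. Osm, a cytokine of the IL-6 family, differed by 0.81 between the pristane groups (adjusted p = 0.0679), and Mcl1, a survival factor, by 0.48 (adjusted p = 0.192). Of 10 genes of IL-21 and helper T cells 0 were called. Batf differed by 0.59 (adjusted p = 0.0791), Prdm1 by -0.60 (adjusted p = 0.193) and Gata3 by -0.93 (adjusted p = 0.33) between the pristane groups, the first a factor of T and B cells, the next a factor of plasma cells and the last that of Th2 cells.

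The genes whose signals were most like those of Il4ra and Il21r were found by Pearson's r over the 16 arrays, given as a description since the arrays share groups. For Il4ra they were Tnfaip6 (r = 0.912), Lrrc32 (0.879), Prss23 (0.866), P4ha3 (0.865) and Acot11 (0.864). After each group's mean was removed, r with Tnfaip6, a secreted hyaluronan-binding protein induced in inflammation, was 0.81. For Il21r they were Clec4a1 (r = 0.969), Cd72 (0.958), Cthrc1 (0.948), Ms4a7 (0.938) and Basp1 (0.932), and r with Clec4a1, a lectin receptor of myeloid cells, was 0.91 within groups. The 2 chains that lie side by side on chromosome 7 therefore had different nearest genes.

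Because these genes were chosen for their likeness over the same arrays, group differences included, their differences are a description and no independent result. Tnfaip6 differed with pristane by 2.28 in AIRmax and by -0.62 in AIRmin mice. Clec4a1 had log2 signals of 7.08, 7.61, 8.46 and 8.55 in AIRmax pristane mice, where the females again lay above the males, and of 5.63, 6.08, 5.81 and 6.13 in AIRmin pristane mice. The difference between these groups was 2.01.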

How the data were processed

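Total RNA of 16 footpads was measured on 1 array each. The authors deposited a log2 signal for every probe set, already normalized. RMA, which corrects background, equalizes the arrays' distributions and summarizes probes, is named in the sample titles, whereas MAS5 stands in the submitters' processing notes, and neither has a version. Array medians lay between 5.435 and 5.53, and the values were used with no further transformation or pseudocount. Arrays give no read depth, so precision rests on the 4 arrays of a group.

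Of 35556 probe sets, 21789 named 1 gene, 1621 named several and 12146 named none in the annotation used, and 21698 of the first matched a RefSeq gene. Only those naming 1 gene were kept. A gene with several probe sets was read from its brightest over the 16 arrays, which gave 19938 genes. Promoter sequences came from RefSeq, with 9 of 10 listed chains matched.

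Each pair of groups was fitted with limma 3.58.1 in R 4.3.3 using only their own arrays (constant prior), the interaction on all 16 arrays and the sex term in a fit with group. Adjusted p values are Benjamini-Hochberg values over the whole gene table, and a gene was called under 0.05. The study describes the arrays of a group as biological replicates. Genes named were the 10 chains, the called genes and the 3 others with the smallest p between the pristane groups of each pathway list, and the 5 genes most correlated with Il4ra and with Il21r. The chains, lists and tests were chosen with earlier results of these data known.

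The alternatives were averaged probe sets per gene, genes above the median signal, arrays standardized or quantile normalized, a joint fit of the 16 arrays, sex or the skeletal muscle score as a covariate, a trended robust prior, each array left out, and SAM, which was written anew from its description (all relabellings, false discovery rate 0.05). The contrast of female and male responses and the octamer and GC box letters were added after the values and sequences had been seen. The fits were tested on simulated data. Tables and figures were made with Python 3.11.15, numpy 2.4.6, pandas 2.3.3 and matplotlib 3.10.9.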

Additional observations from a re-analysis of the deposited data

Results flagged for a closer look

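In 1 of 36 sets of 4 arrays (9 chains in 4 groups) a single array stood apart by Dixon's ratio of its gap to the group's range, which was 0.9, above the 95% critical value for 4 arrays. It was Il15ra in AIRmin pristane mice, where female 119 had a log2 signal of 6.40 and the other arrays had 6.69, 6.67 and 6.70. Chance flags about 1 in 20 such groups.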

How the results depend on the processing

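With pristane in AIRmax mice, 1 of 9 chains (Il4ra) was called by limma, 3 by SAM, 0 without dim genes (3 chains passed that filter), 0 with the muscle score and 0 to 0 with each array left out. Between the pristane groups 1 was called, 2 after quantile normalization, 2 with all 16 arrays in 1 fit, 3 by SAM, 0 with sex and 0 with the muscle score as a covariate, and 0 to 2 with each array left out. The interaction gave 0, and 0 to 1 with each array left out. The other counts did not change. Shares of all genes were taken only for the main fits and SAM. Whether the chain counts under the other alternatives moved with those of all genes is therefore unknown. Of 972 chain values under the alternatives 920 kept their sign, and those that turned belonged to differences of at most 0.17 in size. In the AIRmax response, Il2ra went from 0.05 to -0.01 with standardized arrays, -0.045 with quantile normalization, -0.18 with the muscle score and -0.009 to 0.11 with each array left out, and Il9r from -0.01 to between -0.061 and 0.063. In the AIRmin response, Il2ra (0.002) went to -0.029 with standardized arrays and -0.046 with quantile normalization. With each array left out it ran from -0.077 to 0.15, Il4ra from -0.14 to 0.29, Il9r from -0.022 to 0.073 and Il13ra2 from -0.036 to 0.12. Between the pristane groups the muscle score gave -0.14 for Il2ra and -0.057 for Il9r, and Il9r ran from -0.044 to 0.039 with each array left out. Between the controls Il4ra ran from -0.31 to 0.12, Il9r from -0.035 to 0.09 and Il13ra1 from -0.12 to 0.08. In the interaction the muscle score gave -0.31 for Il2ra, and with each array left out Il2ra ran from -0.10 to 0.12, Il7r from -0.13 to 0.33, Il9r from -0.089 to 0.036 and Il15ra from -0.10 to 0.003. For sex Il2rb ran from -0.13 to 0.015 and Il15ra from -0.033 to 0.028, with -0.013 after quantile normalization. The causes were not tested. No paired analysis was possible because the array numbers are not shared between groups. The number of arrays limits the precision, and it is unknown whether signals near 4 on the log2 scale exceed background.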
